A study of Mus musculus with 45 samples.

Results

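Chromosome 5 of the mouse was followed across 45 mammary tumors by array comparative genomic hybridization (array CGH), in which tumor DNA and reference DNA carry different dyes and compete for the same probes. Its members were all probes that the array files place on chromosome 5 of the mm8 build, after leaving out 8 spots of genes not reported here, which left 2596 of the 42227 probes on the autosomes and X. They run from 3285647 to 151918350 with a median spacing of 21.95 kb, and 2237 of them carry a gene name. By position, 703 probes lie in the first 50 Mb (proximal), 602 between 50 and 100 Mb (middle) and 1291 beyond (distal).

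All tumors were invasive primary mammary tumors of female mice, each on 1 array against 1 kind of reference, given as pooled spleen in one label and as normal mammary tissue in another. Age and strain are not given in the labels. The 8 models were BRCA1fl/fl;p53+/-;MMTV-cre (5 tumors, "BRCA1/p53" below), in which Cre acts under the MMTV promoter of mammary epithelium and 1 copy of p53 is also missing, p53fl/fl ;MMTV-cre transplant (6, "p53 transplant"), for which the labels do not say what was transplanted, and C3(1)/SV40 T/t-antigens (5, "C3(1)-Tag"), with viral antigens under the C3(1) promoter. The other models carried an oncogene under the MMTV promoter and were MMTV-c-Myc (5), MMTV-Her2/neu (5), MMTV-H-Ras (5), MMTV-PyMT (9) and MMTV-Wnt1 (5). The titles give each tumor a number or code of its own, but the labels do not state whether tumors of a model came from separate mice, so the p-values measure the spread between these samples.

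Chromosome 5 of the mouse carries a cluster of receptor tyrosine kinase genes (Pdgfra, Kit and Kdr), the casein genes of milk, a cluster of CXC chemokine genes beside the EGF receptor ligands amphiregulin, epiregulin, betacellulin and epigen, and the drug efflux pumps Abcb1a and Abcb1b. Tumors gain or lose DNA as whole chromosomes, through missegregation at mitosis, or as pieces that end at a breakpoint within a chromosome. Array CGH reads each as a shift of the log2 ratio over a run of neighbouring probes, and normal cells within a tumor sample pull that shift toward 0.

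By the labels Cy5 marks tumor DNA, but signs in the files point to Cy3. Of 755 filtered intervals in the deposited interval table, 98.0% had the sign of Cy3 over Cy5 on the same array, and so did 27 of 27 on chromosome 5. The sign was therefore taken as Cy3 over Cy5, a choice made after these values were seen. With the dyes as labelled every sign below would turn, so that gains would read as losses. Each array was centred on the median of its autosomal probes. On that scale 1 extra copy in every cell of a diploid tumor would give 0.58.

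The arrays themselves set limits. The noise of single probes, as an SD of log2 ratios, ran from 0.158 to 0.475 per array, and 96.9% to 99.962% of the chromosome 5 spots stood well above background in each of the channels. The arrays lay on 18 slides, 12 of which held 1 model only, and were scanned on 10 dates, 6 of which held 1 model only. Over the other autosomes, C3(1)-Tag tumor 3 and MMTV-Her2/neu tumor 2 correlated at r = 0.9575 and C3(1)-Tag tumor 4 and MMTV-Her2/neu tumor 3 at r = 0.9304 across 1 Mb bins, as a description, while the next pair reached 0.8366. MMTV-Wnt1 tumor 1 read -0.07 at the Wnt1 probe, where the other 4 tumors of its model read 1.17 to 1.49. These 5 arrays are called in doubt below, and the main comparisons are also given without them. At 1 of 2 Brca1 probes the BRCA1/p53 tumors read -5.10 to -1.73.

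Chromosome 5 was gained over nearly its whole length in 9 of 45 tumors and partly in 1 more, and no tumor lost it. A segment, a run of probes with 1 mean, was called gained or lost where that mean was at least 0.2 in size, and a tumor was called where at least 10% of its chromosome 5 probes lay in such segments. By this rule 10 of 45 tumors (22.2%, exact Clopper-Pearson 95% interval 11.2 to 37.1%) had a gain and 0 of 45 a loss (interval up to 7.87%). The 9 tumors with at least 90% of probes gained were MMTV-Her2/neu tumors 1, 2 and 5, p53 transplant tumors 2, 3 and 6, C3(1)-Tag tumors 3 and 5 and MMTV-Wnt1 tumor 1. Without the 5 arrays in doubt, 3 of which are among these 9, 7 tumors had a gain and 0 a loss. The tumor numbers follow the order of the samples and are names only.

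The level of these gains was low. The 9 gained chromosomes lay at 0.21 to 0.42, all under the 0.58 of 1 extra copy in every cell. C3(1)-Tag tumor 5 stood at 0.21, just inside the limit, and C3(1)-Tag tumor 3 at 0.31. The MMTV-Her2/neu tumors 1, 2 and 5 stood at 0.31, 0.29 and 0.42, and p53 transplant tumor 6 at 0.39. Each of these was a single level from end to end, except that MMTV-Her2/neu tumor 2 had a short unchanged interval described further on. The remaining gained chromosomes were uneven: p53 transplant tumor 2 held segments at 0.42, 0.10, 0.44, 0.26 and 0.42, and p53 transplant tumor 3 segments at 0.31, -0.13, 0.21, 0.39 and 0.20. In MMTV-Wnt1 tumor 1 a level of 0.29 was broken once by a short segment at 0.66.

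BRCA1/p53 tumor 2 differed from the other gained tumors in extent and level. It gained only the distal end, 136463977 to 151918350 of mm8 (15.5 Mb, 398 probes), at 0.75, while its proximal and middle sections stood at -0.0099 and 0.046. This was the largest segment mean in size on chromosome 5 in any of the 45 tumors, and none reached 1. BRCA1/p53 tumor 5 gained a smaller piece of the same end, 148472992 to 151918350 (68 probes), at 0.25.

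**Figure D1:**
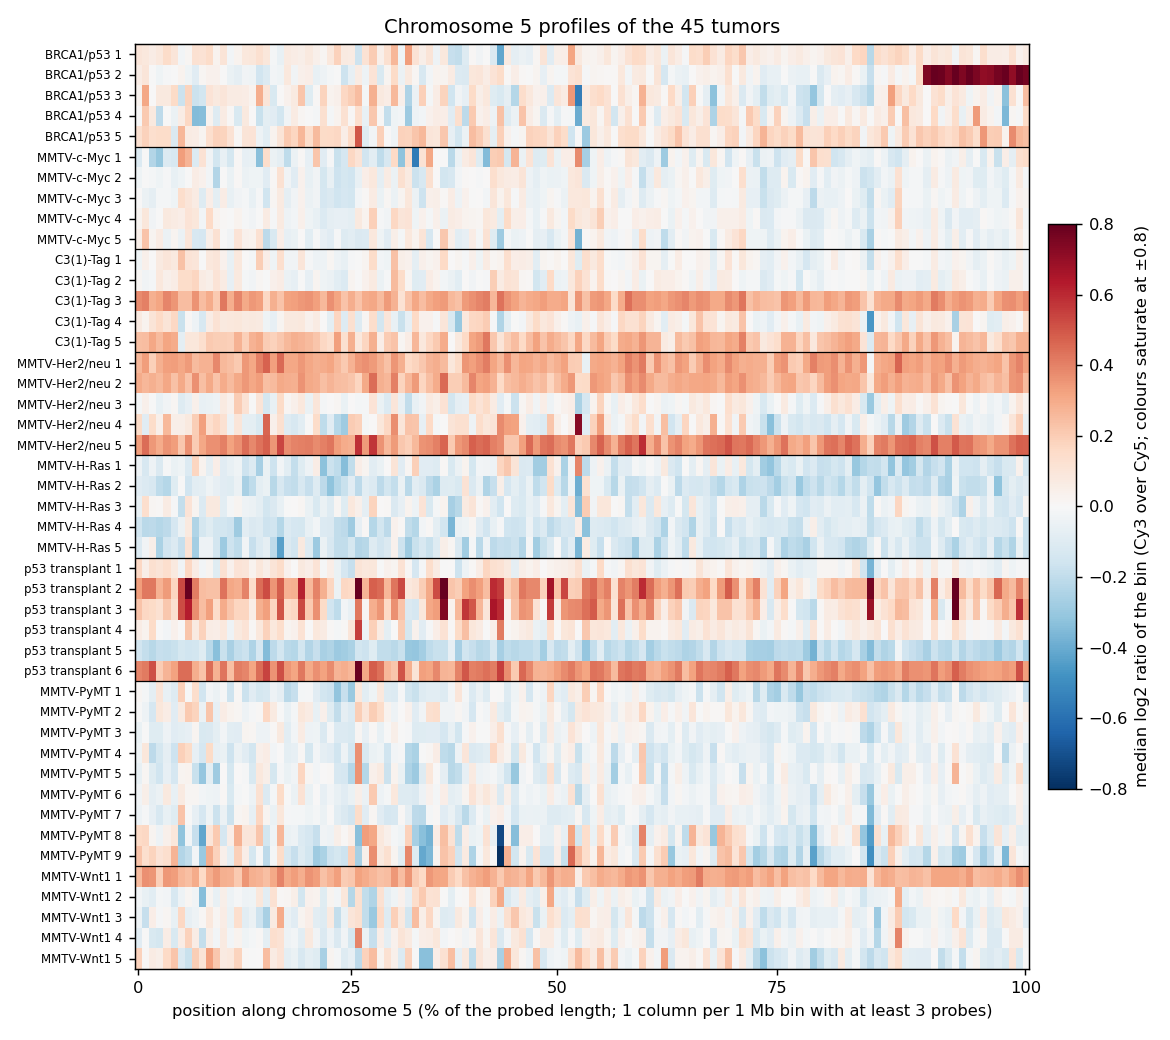
Log2 ratio (Cy3 over Cy5, colour from -0.8 to 0.8) in 126 bins of 1 Mb along chromosome 5 (x axis, % of the probed length), one row per tumor and grouped by model. The 9 gained chromosomes appear as rows that are red over at least 90% of their probes, at 0.21 to 0.42, and BRCA1/p53 tumor 2 is red at the distal end only (0.75).

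No tumor reached the rule for a loss. The lowest mean of the chromosome was -0.21, in p53 transplant tumor 5, whose profile lay just outside the limit, with segments at -0.19 and -0.20 around a lost piece from 35238240 to 38154107 at -0.34. That piece was 3.20% of the probes, the largest lost share in the 45 tumors. The deposited interval table lists the whole chromosome of this tumor at -0.25. The next largest lost share was 2.93%, in MMTV-PyMT tumor 1, from 35707070 to 38500315 at -0.28. Just outside the limit on the other side lay C3(1)-Tag tumor 4, with 64327889 to 66943999 at 0.1962.

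Chromosome 5 was lost less than the rest of the genome. On average 0.185% of its probes were lost per tumor against 11.3% of the probes of the other 18 autosomes, a difference lower on chromosome 5 in 33 tumors and higher in 1 (exact sign-flip permutation test over 45 tumors, two-sided, adjusted p = 1.23e-07 over 2 comparisons). It was the only autosome lost in 0 tumors under the 10% rule, while the others were lost in 2 to 16. The gained share was 20.3% on chromosome 5 against 13.1%, which did not pass the same test (exact permutation p = 0.182, higher in 9 tumors and lower in 33). By the number of tumors gained it tied for rank 5 of the 19 autosomes, with 10 tumors of 5 models against 19 tumors for chromosome 6 and 13 each for chromosomes 15 and 17. With the dyes as labelled that rank would be one of losses, and chromosome 5 would be the only autosome gained in 0 tumors. Without the 5 arrays in doubt the difference in the lost share was -10.3 percentage points (exact permutation, adjusted p = 3.94e-06). It was -7.09 with arrays centred on the peak of their density (adjusted p = 0.0213, 2 tumors with a loss of chromosome 5) and -5.88 with a limit of 0.3 in place of 0.2 (adjusted p = 1.86e-09).

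**Figure D2:**
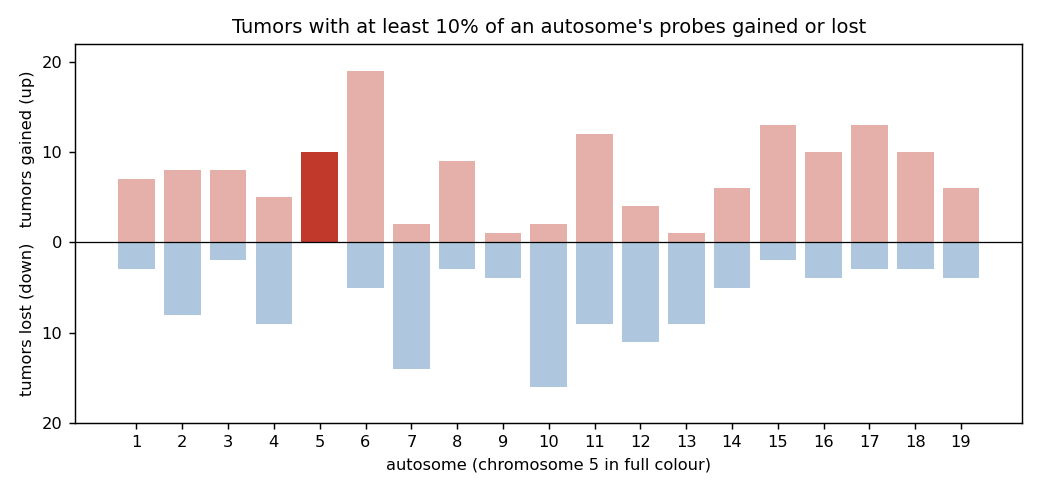
Number of the 45 tumors gained (upward bars) and lost (downward bars) under the 10% rule for each autosome, with chromosome 5 in full colour. Chromosome 5 has 10 tumors gained and 0 lost, while chromosome 10 has 16 lost and chromosome 7 has 14.

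The tumors that gained chromosome 5 also carried whole gains of other autosomes. At least 90% of chromosome 16 was gained in 6 of the 9 and in 1 of the other 36 tumors, chromosome 18 in 5 and 4, chromosome 3 in 4 and 1, chromosome 6 in 4 and 8 and chromosome 17 in 3 and 5. Chromosome 15 was gained in this way in 0 of the 9 and in 12 of the 36. C3(1)-Tag tumor 3 and MMTV-Her2/neu tumor 2, the most alike pair of arrays in doubt, both carried gains of 16 and 18. In the 6 gained tumors not in doubt the counts were 4 for chromosome 16, 3 for chromosome 18, 3 for chromosome 3, 4 for chromosome 6 and 2 for chromosome 17. Within a tumor, the median level over probes of the gained segments of chromosome 5 was set against that of gained segments on the other autosomes. It was 0.31 against 0.23 in C3(1)-Tag tumor 3 and 0.42 against 0.37 in MMTV-Her2/neu tumor 5. In p53 transplant tumor 2 it was 0.42 against 0.38, in tumor 6 0.39 against 0.39 and in MMTV-Wnt1 tumor 1 0.29 against 0.28. It was lower on chromosome 5 in MMTV-Her2/neu tumors 1 (0.31 against 0.34) and 2 (0.29 against 0.35) and in C3(1)-Tag tumor 5 (0.21 against 0.22). In p53 transplant tumor 3 the other gained segments stood at 0.37, while those of chromosome 5 ran from 0.20 to 0.39 with a mean of the chromosome of 0.28. Chromosome 5 had the highest mean of the 19 autosomes in MMTV-Her2/neu tumor 5 only.

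The question of the design was whether copy number differed between models. Over the whole chromosome no model passed the test, and MMTV-Her2/neu and MMTV-H-Ras came nearest, from opposite sides. The mean log2 ratios of the MMTV-Her2/neu tumors were 0.302, 0.260, 0.038, -0.0019 and 0.415, so that 3 stood apart from the other 2. The MMTV-H-Ras tumors read -0.107, -0.161, -0.067, -0.108 and -0.145. All 5 MMTV-H-Ras values lay under 0, and 4 of the 5 tumors under -0.1 in the series were of this model, the fifth being p53 transplant tumor 5. The p53 transplant tumors spanned the widest range, with -0.206 as the lowest, 0.18 as the median and 0.390 as the highest.

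In the other models most tumors lay near 0. The C3(1)-Tag tumors read 0.023, 0.0041, 0.303, 0.0075 and 0.206. The BRCA1/p53 tumors read 0.064, 0.130, 0.027, 0.056 and 0.121, all above 0 and below every fully gained tumor. The MMTV-Wnt1 tumors read 0.291, 0.0027, -0.032, -0.011 and -0.034, so that a single tumor, which is in doubt, lay apart. The MMTV-c-Myc tumors read -0.053, -0.026, -0.024, 0.0044 and -0.024, the narrowest spread of any model. The MMTV-PyMT tumors ranged from -0.091 through a median of -0.0034 to 0.028.

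**Figure D3:**
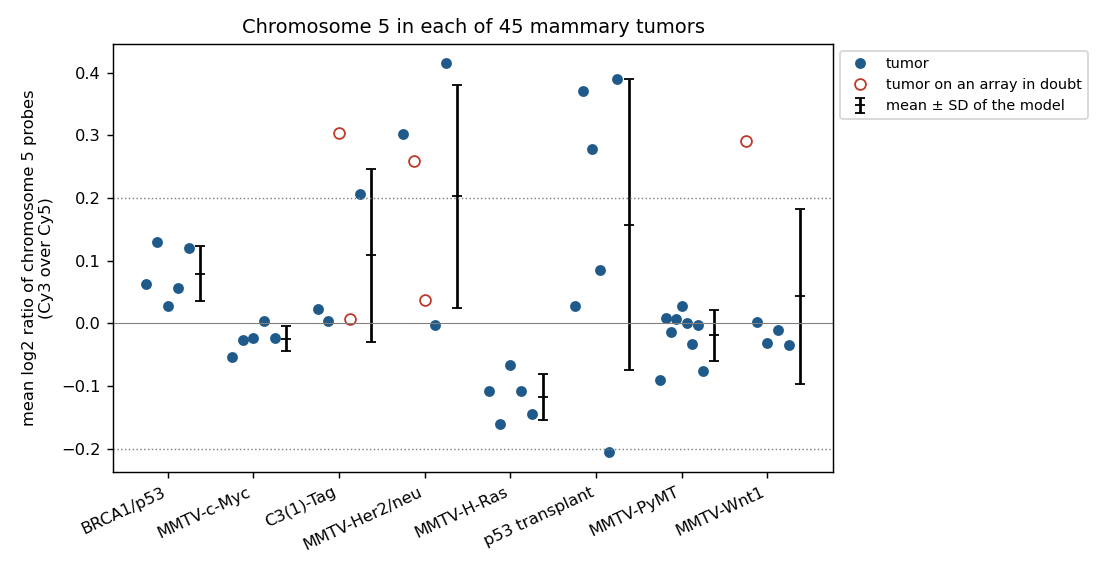
Mean log2 ratio (Cy3 over Cy5) over the chromosome 5 probes, a point per tumor, by model, with the model mean ± SD as bars, open red points for the 5 arrays in doubt and dotted lines at ±0.2. The 9 gained tumors sit between 0.21 and 0.42, and the 5 MMTV-H-Ras tumors sit below 0.

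Each model was compared with all other tumors by a two-sided exact permutation test of the mean, adjusted by Benjamini-Hochberg over 8 models. MMTV-Her2/neu stood at 0.20 ± 0.18 (SD, n = 5), higher than the other tumors by 0.17 (exact permutation p = 0.0142, adjusted p = 0.0568). MMTV-H-Ras stood at -0.12 ± 0.037 (SD, n = 5), with a difference of -0.19 (exact permutation p = 0.00765, adjusted p = 0.0568). The p53 transplant mean was 0.16 ± 0.23 (SD, n = 6), with a difference of 0.12 (exact permutation p = 0.0535, adjusted p = 0.143). The differences of the other 5 models lay between -0.086 and 0.066, with adjusted p of 0.252 to 0.922. The range of each model overlapped that of all other tumors pooled, but among single models MMTV-H-Ras overlapped p53 transplant and MMTV-PyMT only. Without the 5 arrays in doubt the differences were 0.22 for MMTV-Her2/neu, -0.17 for MMTV-H-Ras and 0.15 for p53 transplant (exact permutation, adjusted p = 0.0524 for each).

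These near calls turned on single tumors. Leaving out any 1 of C3(1)-Tag tumor 3, MMTV-Her2/neu tumors 3 and 4, p53 transplant tumors 2, 3, 5 and 6 or MMTV-Wnt1 tumor 1 brought both MMTV-Her2/neu (adjusted p = 0.03 to 0.044, exact permutation) and MMTV-H-Ras (0.0208 to 0.044) past the threshold. Without p53 transplant tumor 5 the p53 transplant difference was 0.20 (adjusted p = 0.0208, exact permutation). Other removals took the values away from the threshold. Over all single removals the adjusted p of the exact permutation test reached 0.274 for MMTV-Her2/neu, 0.0794 for MMTV-H-Ras and 0.378 for p53 transplant. With labels permuted within slides, the MMTV-Her2/neu difference was 0.27 over 4 arrays of the model, 2 of them in doubt, against 10 others (exact permutation, adjusted p = 0.0347). The 144 assignments allow no p under 0.00694. MMTV-Her2/neu tumor 4, at -0.0019 and alone on its slide, could not enter. The 10 others were MMTV-c-Myc, MMTV-PyMT and C3(1)-Tag tumors, none of them with a gain of chromosome 5. The difference within slides was -0.11 for MMTV-c-Myc and -0.062 for MMTV-PyMT. For C3(1)-Tag, with 2 arrays against 6, it was -0.10, where the 16 assignments allow no p under 0.0625. With labels permuted within scan dates the difference was 0.15 for MMTV-Her2/neu and 0.12 for p53 transplant (exact permutation, adjusted p = 0.349 for each). For MMTV-H-Ras it compared 1 array, tumor 1, with 4 others of which 2 are in doubt, and gave -0.24 with no p under 0.2 possible. For MMTV-Wnt1 the slide and the scan date hold the same arrays, tumor 5 against MMTV-PyMT tumors 8 and 9, with a difference of 0.0059 and no p under 0.333 possible. The MMTV-H-Ras arrays and the p53 transplant arrays each lay on 2 slides that held no other model, so for these model and slide cannot be told apart.

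By section, the differences of MMTV-Her2/neu, MMTV-H-Ras and p53 transplant kept 1 sign along the chromosome. None of 24 exact permutation tests of the 3 sections in 8 models passed after adjustment. The lowest adjusted p was 0.0577, shared by all 3 sections of MMTV-Her2/neu (differences of 0.17 proximal, 0.18 middle and 0.17 distal), all 3 of MMTV-H-Ras (-0.19, -0.18 and -0.19) and the middle section of p53 transplant (0.17). Without the 5 arrays in doubt none passed either, with a lowest adjusted p of 0.0604. Within tumors the middle section had the highest mean of the 3 in 35 of 45 tumors, also in 28 of the 36 without a gain of the whole chromosome. It exceeded the mean of the other sections by 0.032 ± 0.035 (SD) in those 36 tumors and by 0.051 ± 0.060 (SD) in the 9 gained ones.

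The share of the chromosome gained did not pass in any model. It averaged 59.8% of probes in MMTV-Her2/neu against 15.3% elsewhere (exact permutation p = 0.0243, adjusted p = 0.388 over 16 tests) and 49.1% in p53 transplant against 15.9% (adjusted p = 0.526). Without the 5 arrays in doubt the difference in the gained share was 55.5 percentage points for MMTV-Her2/neu and 39.7 for p53 transplant (exact permutation, adjusted p = 0.267 for each). The number of gained tumors was 3 of 5 in MMTV-Her2/neu (60%, exact interval 14.7 to 94.7%), 3 of 6 in p53 transplant, 2 of 5 in C3(1)-Tag, 1 of 5 in BRCA1/p53 and 1 of 5 in MMTV-Wnt1. It was 0 in MMTV-c-Myc, MMTV-H-Ras and MMTV-PyMT. With 5 tumors a count of 0 has an exact 95% interval up to 52.2%, and with 9 up to 33.6%. The counts were not tested between models.

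Finer comparisons were made in bins of 1 Mb, in which the median log2 ratio of each model was set against the mean of the other 7 by limma with Benjamini-Hochberg adjustment over all 2057 autosomal bins. The 126 bins of chromosome 5 held a median of 17 probes. In MMTV-H-Ras 32 of the 126 (25.4%) were lower, against 3.99% of all autosomal bins. In p53 transplant 5 (3.97%) were higher, against 2.28%, and in MMTV-PyMT 3 (2.38%) were lower, against 0.194%. No chromosome 5 bin passed in BRCA1/p53, MMTV-c-Myc, C3(1)-Tag, MMTV-Her2/neu or MMTV-Wnt1, where 2.48%, 0.438%, 0%, 0% and 0.0486% of all bins passed. At an unadjusted limma p under 0.05, MMTV-Her2/neu had 89 chromosome 5 bins (70.6%, against 22.4% of all autosomal bins) and BRCA1/p53 15 (11.9% against 17.5%). C3(1)-Tag had 6 (4.76% against 4.52%), MMTV-c-Myc 4 (3.17% against 6.71%) and MMTV-Wnt1 2 (1.59% against 6.47%). The share at this limit was 71.4% against 31% in MMTV-H-Ras, 27.0% against 13.8% in MMTV-PyMT and 20.6% against 24% in p53 transplant. By adjusted p the MMTV-Her2/neu count rose from 0 to 58 without MMTV-Her2/neu tumor 4 and to 37 after normexp background correction, and the BRCA1/p53 count from 0 to 3 without BRCA1/p53 tumor 1 and to 1 without C3(1)-Tag tumor 3 or 5, MMTV-Her2/neu tumor 5 or p53 transplant tumor 6.

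The lower bins of MMTV-H-Ras were spread along the whole chromosome and were shallow. The largest difference was in the bin from 29 to 30 Mb (29000001 to 30000000), with -0.17 in MMTV-H-Ras against 0.14 in the other models, a difference of -0.32 ± 0.077 (SE, limma adjusted p = 0.0105). By adjusted p the next was 20 to 21 Mb, at -0.25 ± 0.067 (SE, limma adjusted p = 0.0136). The median difference over all 126 bins was -0.18, and no segment of any MMTV-H-Ras tumor was called lost. On the other autosomes 23.5% of the probes of these tumors were gained and 3.08% lost, and whether this moved the centre was not tested. Centred on the peak of the density of the probe values, MMTV-H-Ras tumors 1 to 5 read -0.12, -0.046, -0.067, 0.022 and -0.17 on chromosome 5, and 4 bins were called. The count was 0 without MMTV-H-Ras tumor 2 or 5, 2 without tumor 4, 16 without tumor 1, 50 without MMTV-Her2/neu tumor 4, 56 without p53 transplant tumor 5 and 20 without the 5 arrays in doubt. It was 0 after normexp background correction in place of the scanner software's, 33 with slide as a random block and 20 with scan date as one.

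The 5 higher bins of p53 transplant lay apart from each other. The bins from 13 to 14 Mb (0.27 ± 0.078, SE) and from 41 to 42 Mb (0.34 ± 0.098, SE) both had a limma adjusted p of 0.0256. The bin from 41 to 42 Mb holds 4 probes, among them one of Rab28, a small GTPase, at a mean of 1.04 in p53 transplant. The others were 48 to 49 Mb (0.21), 67 to 68 Mb (0.22) and 128 to 129 Mb (0.30), the last with 6 probes and a mean of -0.13 in the other models. The count was 27 without p53 transplant tumor 5, 10 without tumor 1, 3 without tumor 4 and 0 without tumor 2, 3 or 6, and 3 without the 5 arrays in doubt. It was also 3 without BRCA1/p53 tumor 1, MMTV-c-Myc tumor 5, C3(1)-Tag tumor 4, MMTV-Her2/neu tumor 3, MMTV-H-Ras tumor 5 or MMTV-Wnt1 tumor 5. The 3 lower bins of MMTV-PyMT, at 15 to 16, 50 to 51 and 71 to 72 Mb (differences of -0.21, -0.21 and -0.20), were 0 without the 5 arrays in doubt and without any 1 of MMTV-PyMT tumors 1, 4, 5, 8 and 9.

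**Figure D4:**
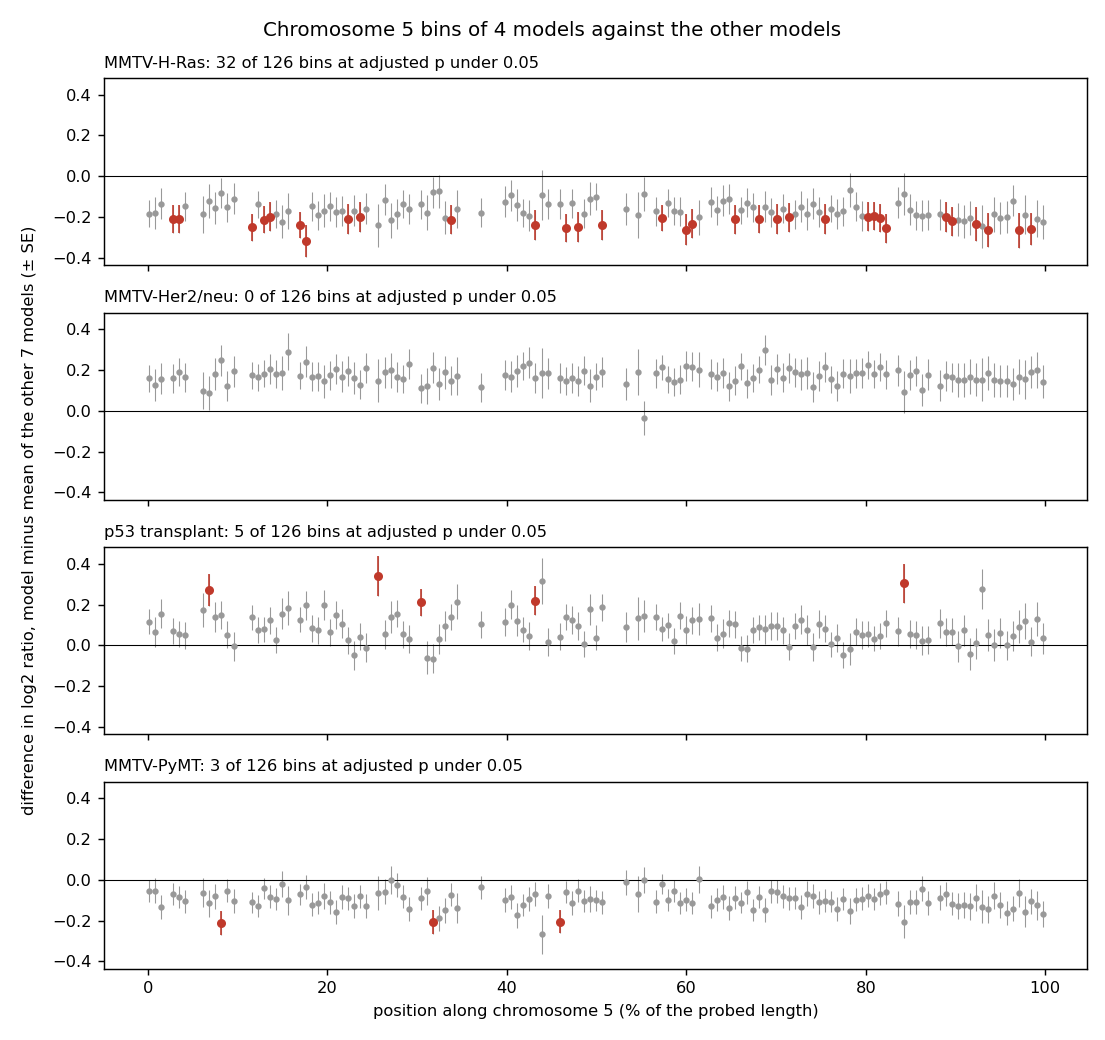
Difference in log2 ratio (model minus the mean of the other 7 models, ± SE, Cy3 over Cy5) in the 126 bins of 1 Mb along chromosome 5 (x axis, % of the probed length) for 4 models, with bins past a limma adjusted p of 0.05 in red. In MMTV-H-Ras 32 bins lie below 0 in red, in p53 transplant 5 lie above and in MMTV-PyMT 3 below, while MMTV-Her2/neu lies above 0 in 125 of the 126 with no red bin.

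Breakpoints were few. Segment edges within chromosome 5 numbered 69 in 21 tumors, and 24 tumors had none. The median step at an edge was 0.18, and 26 edges in 12 tumors had a step of at least 0.2. Chromosome 5 had 26.6 edges per 1000 probes, rank 13 of the 19 autosomes. The mean number per tumor was 2.67 in p53 transplant, 2.6 in BRCA1/p53, 1.6 in MMTV-c-Myc, 1.6 in MMTV-Wnt1, 1.2 in MMTV-Her2/neu, 1.2 in MMTV-H-Ras, 1.11 in MMTV-PyMT and 0.4 in C3(1)-Tag. No model differed from the others (exact permutation tests, lowest adjusted p = 0.616 over 8, and 0.729 without the 5 arrays in doubt). With steps of at least 0.2 only, the totals were 9 in BRCA1/p53, 5 each in MMTV-PyMT and MMTV-Wnt1, 4 in p53 transplant, 3 in MMTV-Her2/neu and 0 in the other models.

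In windows of 2 Mb, 7 windows with edges of at least 3 tumors held 41 of the 69 edges. The window from 38 to 40 Mb held 10 edges of 9 tumors in 5 models, 34 to 36 Mb held edges of 6 tumors, and 146 to 148 Mb edges of 6 tumors in 6 models. The window from 110 to 112 Mb held edges of 5 tumors, and those that began at 22, 108 and 148 Mb held edges of 4 tumors each. Of the 41 edges 15 had a step of at least 0.2. In 8 places edges of a pair of tumors lay between the same probes. MMTV-PyMT tumor 9 and MMTV-Wnt1 tumor 5, on 1 slide, shared the edges after 23193266, 138424951 and 138746091, and BRCA1/p53 tumors 3 and 5, on 1 slide, the edge after 148018223. MMTV-Her2/neu tumor 4 and MMTV-H-Ras tumor 1, on different slides of 1 scan date, shared the edge after 110352344. The other 3 were shared by arrays with neither slide nor scan date in common. They were the edges of p53 transplant tumors 2 and 3 after 35874232 and 39027108, and of MMTV-Her2/neu tumor 4 and p53 transplant tumor 1 after 39036124. The part of slide and scan date was not tested.

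The windows from 34 to 40 Mb bound an interval that was low in p53 transplant. From 35879336 to 38495277 (68 probes) lie Evc and Evc2, which act in Hedgehog signalling at the cilium, Wfs1, a protein of the endoplasmic reticulum, and Msx1, a homeobox factor. Relative to the flanking probes of the same tumor this interval stood at -0.21, -0.36, -0.48, -0.21, -0.20 and -0.22 in p53 transplant tumors 1 to 6. All 6 were below their flanks, with a mean of -0.28 ± 0.12 (SD), while the means of the other models lay between -0.071 and -0.016. As medians over the probes, which single extreme probes move less, the p53 transplant differences were -0.083, -0.26, -0.40, -0.056, -0.067 and -0.074, so that only tumors 2 and 3 stood clearly apart. All p53 transplant arrays lay on the 2 slides with that model alone, so model and slide cannot be told apart here. Among the other models MMTV-PyMT tumor 1, with a lost segment in the same place, was lowest at -0.19.

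A short distal interval was low in BRCA1/p53. Lost segments lay at 148139175 to 148842076 in BRCA1/p53 tumor 3 (-0.52, 16 probes), 147858767 to 148650990 in tumor 4 (-0.63, 14 probes) and 148139175 to 148204406 in tumor 5 (-0.53, 6 probes). Together they span 19 probes of Pan3, a poly(A) nuclease subunit, Flt1, the VEGF receptor 1, Pomp, a proteasome assembly factor, 1200006F02Rik, C130038G02Rik, Slc7a1, a transporter of cationic amino acids, and Ubl3. Within the interval 7 probes read below -0.5 in all 3 tumors and 8 in none of them, so low and unchanged probes alternated. A probe of C130038G02Rik had a mean of -1.04 in the model. These 3 arrays shared 1 slide with no other model, and tumors 1 and 2, on other slides, stood at -0.070 and 0.0064 relative to their flanks.

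**Figure D5:**
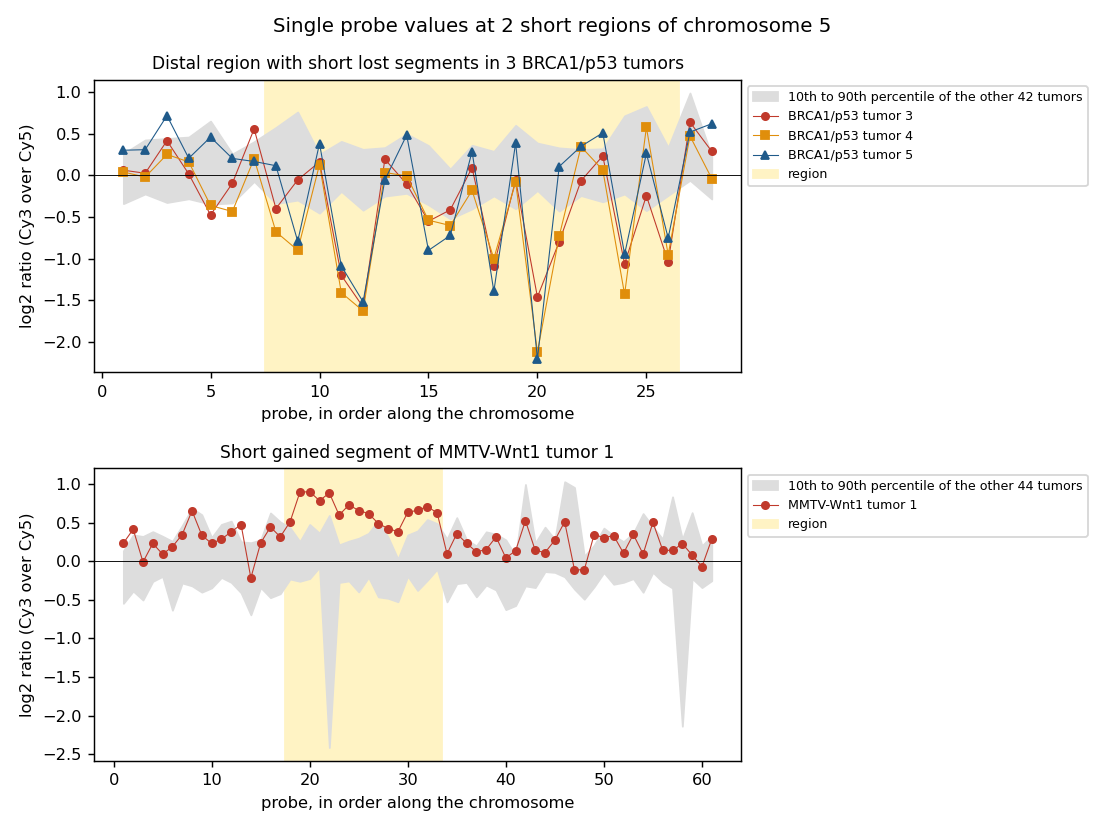
Log2 ratio (Cy3 over Cy5) of single probes in their order along the chromosome, with the interval shaded and the 10th to 90th percentile of the other tumors in grey. In the upper panel 7 of 19 probes read below -0.5 in all 3 BRCA1/p53 tumors, and in the lower panel all 16 probes of the MMTV-Wnt1 tumor 1 interval lie above its flanking level of 0.28.

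MMTV-Wnt1 tumor 1 held a small step within its gain. From 31023584 to 31227404 (16 probes) it read 0.66 against 0.28 in its flanks, and all 16 probes lay above the flanking level. The genes there include Dpysl5, Mapre3, a microtubule end-binding protein, Emilin1, an extracellular matrix protein, Khk, the ketohexokinase of fructose metabolism, and Abhd1. The interval minus its flanks was 0.38 in this tumor and 0.16 in the next highest, BRCA1/p53 tumor 4. The array is one of those in doubt.

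Other short intervals were each found in 1 to 3 tumors. In MMTV-Her2/neu tumor 2, 22 probes from 137146418 to 137562275, with Ache (acetylcholinesterase) and Trip6, stood at -0.46 relative to the flanks as a mean and at -0.17 as a median. This interval was below its flanks in 42 of the 45 tumors. In BRCA1/p53 tumor 5, 21 probes from 24740540 to 27232517, with Xrcc2 of homologous recombination and Dpp6, stood at -0.52 relative to the flanks as a mean, at -0.27 as a median, and formed a segment called lost at -0.22. In C3(1)-Tag tumor 4, the interval that ended just outside the limit stood 0.34 above its flanks. From 138472607 to 138746091 (11 probes, with Gpc2 and Stag3) MMTV-PyMT tumor 9 and MMTV-Wnt1 tumor 5 had segments called gained at 0.64 and 0.58. The interval was above its flanks in 41 of the 45 tumors. Inside it, the probes without gene names at 138742968 to 138743027 and 138746032 to 138746091 read 5.64 to 6.89 in MMTV-PyMT tumors 8 and 9 and MMTV-Wnt1 tumor 5, and -0.76 to 0.86 in the other 42 tumors. Relative to the flanks, the interval stood as a mean at 1.82 in MMTV-PyMT tumor 8, 1.63 in MMTV-PyMT tumor 9 and 1.52 in MMTV-Wnt1 tumor 5. Without these 2 probes it stood at 0.74, 0.61 and 0.55. MMTV-c-Myc tumor 1 and MMTV-PyMT tumor 6 came close without them, at 0.52 and 0.51. MMTV-PyMT tumors 6 and 8 and MMTV-c-Myc tumor 1 had no gained segment on chromosome 5. The arrays of MMTV-PyMT tumors 8 and 9 and MMTV-Wnt1 tumor 5 shared 1 slide, and the part of the slide was not tested.

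Genes were followed in 7 lists. Of 82 listed genes 72 had a probe, and of the 1267 gene names on chromosome 5, 895 (70.6%) matched a RefSeq entry. A listed gene lay in a gained segment in 7 (Msx1) to 11 tumors (Pds5b, a cohesin regulator, Stard13, and Kl, a coreceptor of FGF23) and in a lost one in at most 2. In MMTV-H-Ras 36 of the 72 (50%) lay in bins that were lower, against 25.4% of the chromosome 5 bins and 34.4% of its 1267 gene names, and in p53 transplant 2 (2.78%, Slit2 and Fzd10) in bins that were higher, against 3.97% of the chromosome 5 bins. A call is that of the bin and not of the gene. Listed genes that lie side by side can share a bin and its call, so these counts of genes are not counts of separate calls. The 36 genes were chosen by bins that hold their own probes, so low means in MMTV-H-Ras largely follow from the choice. As a description, 36 of the 36 had a mean in MMTV-H-Ras under the mean of the other 7 models, and 30 had one below 0. In the other 6 models 0 of the 72 lay in a called bin. In the 6 gained tumors not in doubt the list medians given below ran from 0.23 (chromatin and transcription) to 0.43 (milk and secreted proteins), and in the 34 other tumors not in doubt from -0.092 to 0.092, for the same lists.

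Since the 9 gained tumors were chosen by the segments that cover these genes, the higher values there follow from the choice and are given as a description. Over the 14 genes of receptor tyrosine kinases and growth factors, the median of the gene means was 0.30 in the 9 gained tumors and -0.041 in the other 36, against 0.30 and -0.023 over all chromosome 5 probes. Btc, the EGF receptor ligand betacellulin, read 0.24, 0.37 and 0.54 as lowest, median and highest in the gained tumors and -0.48, -0.038 and 0.16 in the others, with no overlap. Kit, the receptor of stem cell factor (75897129 to 75931056), read -0.038, 0.20 and 0.38 against -0.32, -0.049 and 0.17. In 7 of the 9 gained tumors Kit was above every other tumor. Kdr, the main VEGF receptor of endothelium, read 0.079, 0.36 and 1.01 against -0.40, -0.0040 and 0.29. Fgf5 had a median of 0.020 against -0.18. In MMTV-H-Ras 6 of the 14, Areg and Btc among them, lay in lower bins.

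The milk and secreted protein genes had the highest medians of any list, both in the gained tumors and in the others. Over 6 genes these were 0.40 in the gained tumors and 0.092 in the others, against 0.30 and -0.023 over all chromosome 5 probes. Csn1s1, the alpha-S1 casein (88744069 to 88753345), read 0.30, 0.50 and 0.69 in the gained tumors and -0.41, 0.14 and 0.64 in the others, overlapping. Spp1, osteopontin, read 0.33, 0.46 and 1.21 against -1.40, 0.093 and 1.13. In MMTV-H-Ras 5 of the 6 lay in lower bins, but Csn1s1, Csn2, Csn1s2a and Csn1s2b share the bin from 88 to 89 Mb. Csn2, Spp1 and Csn1s2a themselves had means of 0.16, 0.10 and 0.027 in MMTV-H-Ras, against 0.21, 0.20 and 0.19 in the other models. In MMTV-Her2/neu all 126 bins were gained in 3 tumors, so no bin was gained most often. Among these tied bins 88 to 89 Mb, which holds Csn1s1, Csn2, Csn1s2a and Csn1s2b, had the highest mean (0.32). Ugt2a3, a glucuronosyltransferase, had a mean of 0.57 there. The same bin stood at 0.11 in the other models, a difference of 0.21, below the 0.30 of the bin from 105 to 106 Mb. In C3(1)-Tag all 126 bins were gained in 2 tumors. The highest mean was in 109 to 110 Mb, with a mean of 0.31 for the transcript AK006716.

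The CXC chemokine genes gave list medians of 0.32 in the gained tumors and -0.00050 in the others over 9 genes. Cxcl1, a chemokine for neutrophils, read 0.080, 0.37 and 0.48 against -0.36, -0.063 and 0.12, and 8 of the 9 gained tumors lay above every other tumor. Cxcl9, induced by interferon, overlapped fully, at -0.38, 0.39 and 0.60 against -0.55, 0.061 and 0.77. In MMTV-H-Ras 3 of the 9 lay in lower bins.

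Replication, repair and cell cycle genes had list medians of 0.33 and -0.0070 over 13 genes with a probe, and 5 of them lay in lower bins of MMTV-H-Ras. Xrcc2 read 0.12, 0.28 and 0.47 against -0.52, -0.0044 and 0.25, and Pms2, of mismatch repair, 0.29, 0.38 and 0.48 against -0.33, -0.0021 and 0.68. The Pms2 value of 0.68 belonged to BRCA1/p53 tumor 2. Chromatin and transcription genes had medians of 0.26 and -0.083 over 13 genes, and 10 of them lay in lower bins of MMTV-H-Ras. Clock, of the circadian oscillator, read 0.12, 0.42 and 0.64 against -0.31, -0.0025 and 0.31. Msx1 had a median of 0.056 in the gained tumors, against -0.21.

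Signalling genes had medians of 0.30 and -0.020 over 13 genes, and 4 of them lay in lower bins of MMTV-H-Ras. Ptpn11, the phosphatase SHP2, read -0.36, 0.27 and 0.35 against -0.34, -0.095 and 0.22, with 7 of 9 gained tumors above all others and the rest within their range. Fzd10, a Wnt receptor, had medians of -0.011 against -0.31. Shh, a Hedgehog ligand, read -1.17, 0.17 and 0.49 against -0.41, 0.021 and 0.34, with its lowest value in a gained tumor. The drug transporters had medians of 0.29 and -0.036 over 4 genes, 3 of which lay in lower bins of MMTV-H-Ras. Abcb1b, a drug efflux pump (8833385 to 8872017), read 0.11, 0.25 and 0.51 against -0.25, -0.030 and 0.17, and 7 of the 9 gained tumors were above all others.

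The distal gain of BRCA1/p53 tumor 2 covered 15 of the listed genes, at 0.54 (Flt3, a receptor of blood progenitors) to 0.97 with a median of 0.76. The highest were Mad1l1, of the spindle checkpoint, and Rac1, a small GTPase of cell motility, both at 0.97. Stard13 stood at 0.94, Lfng, a Notch modifier, at 0.93 and Pdgfa, a ligand of PDGF receptors, at 0.87. In this tumor each of the 15 was above the median of the 9 fully gained tumors. Flt1, at 0.68 in this tumor, lay in the segment that was lost in BRCA1/p53 tumor 4. In BRCA1/p53 4 bins were gained in 2 tumors, the most of any bin, and of these 151 to 152 Mb had the highest mean, with Stard13 at a probe mean of 0.75.

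Single probes departed from their surroundings in several tumors of a model. A probe was called isolated where it deviated from the segment mean by at least 1, with 1 sign, in at least 3 tumors of a model. On chromosome 5 81 probes (3.12%) were isolated in some model, against 3.65% of all autosomal probes, and 62 (2.39%) in p53 transplant, against 2.76%. The count was 22 in MMTV-PyMT (0.847%, against 0.868%), where 9 tumors rather than 5 or 6 could meet the rule, 16 in BRCA1/p53 (0.616% against 0.893%) and 9 in MMTV-Her2/neu (0.347% against 0.364%). It was 5 in MMTV-c-Myc (0.193% against 0.103%), 1 in MMTV-H-Ras (0.0385% against 0.0664%) and 0 in C3(1)-Tag and MMTV-Wnt1 (against 0.091% and 0.0885%). Of the 81 probes, 60 were isolated in 1 model only.

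The 10 largest isolated deviations were taken by the mean over all tumors of a model, and the levels below are means over the tumors that deviated. The probe of Sbds, a ribosome maturation factor (130537418 to 130537477), stood at -7.16 in 4 of 6 p53 transplant tumors and deviated in no other. The probe of Limk1, a kinase of the actin cytoskeleton (134969542 to 134969600), stood at 4.67 in 5 of 5 BRCA1/p53 tumors and 3.51 in 5 of 6 p53 transplant tumors. A probe of the transcript AK144215 stood at 3.57 in 6 of 6 p53 transplant and 2.59 in 5 of 5 BRCA1/p53 tumors, and deviated in 23 of 45 tumors in all. Below the segment mean were AK139490 (-5.38 in 3 of 5 BRCA1/p53 tumors), Stx2 (-4.84 in 4 of 6 p53 transplant) and Evc (-3.62 in 4 of 6 p53 transplant), while Steap1 stood at 4.28 in 4 of 6 p53 transplant. A probe without a gene name at 23577664 to 23577723 stood at -3.07 in 4 of 5 MMTV-Her2/neu tumors and deviated in 13 of 45 in all. Some of these had an isolated neighbour in the same tumors. The probe next to Steap1, at 5773742 to 5773801 and without a gene name, stood at 3.83 in the same 4 p53 transplant tumors. B230342M21Rik, next to AK139490, stood at -2.13 and Kl, further along, at -2.85 in the same 3 BRCA1/p53 tumors, while the 6 probes between AK139490 and Kl were not isolated. In p53 transplant Wfs1 stood at -2.80 in the 4 tumors in which Evc was low, with 9 probes between them. Whether such probes mark a small gain or loss was not tested. The strain of tumor and reference was not given in the labels, and its part was not tested.

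The deposited intervals gave a similar picture with other levels. They held 27 intervals on chromosome 5, 12 of them over the whole chromosome, and the deposited mean of these minus the mean computed here ran from -0.12 to 0.39 with a median of 0.22. By the deposited intervals chromosome 5 was gained in 12 tumors, adding BRCA1/p53 tumors 3 and 5 and p53 transplant tumor 1 and lacking MMTV-Her2/neu tumor 2, and lost in p53 transplant tumor 5.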

How the data were processed

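Genomic DNA of 45 tumors was hybridized with reference DNA to Agilent 44K arrays, 1 array per tumor. The authors deposited scanner output in which each spot has background-subtracted, dye-normalized fluorescence intensity values and their log10 ratio of Cy5 over Cy3, made with Feature Extraction 9.5.1.1 per the file headers. In 99.6% of spots that ratio equalled the log10 of red over green signal within 0.001, and the dye normalization code was 0 on 39 arrays and 1 on 6. They also deposited a table of 5412 intervals with their mean log2 ratio, called with the ADM-2 algorithm (threshold 6). The 755 that held 3 or more probes with means of 0.2 or more in size entered as an alternative. Its p-value column and 8 tables of single models were not used.

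Here log2 ratios were taken as Cy3 over Cy5, without further dye or loess correction, outlier-flagged spots were left out, repeated spots (38 on chromosome 5) averaged, and arrays centred on the autosomal median. Single probes over 3 SD from the median of their 5 neighbours on each side were pulled to that distance, and each chromosome was split by circular binary segmentation (statistic over 6, at least 5 probes). A flank is the member probes within 5 Mb on both sides of an interval. Bins of 1 Mb needed at least 3 probes. Tests were exact permutation tests over tumors and limma over all bins (Python 3.11.15, numpy 2.4.6, scipy 1.17.1, numba 0.67.0, R 4.3.3, limma 3.58.1), checked on simulated data. Adjustment was by Benjamini-Hochberg, called under 0.05. The number of arrays limits the precision.

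Samples were grouped by the model in their labels. Members and lists were chosen with earlier results of these data known. Named genes were the 7 lists, the bin gained and the bin lost in most tumors of a model, segments with a mean of at least 1 in size, and the 10 largest isolated deviations. Short intervals were chosen after their values were seen. The 8 spots of 4 genes are not reported here. No genome or probe sequence of the mm8 build was used here, so no correction for base composition was made. Alternatives were the dyes as labelled, the density peak as centre, normexp background correction (offset 50), loess, other spot filters, segmentation settings and limits, medians, 2 Mb bins, slide or scan date as a block, the arrays in doubt left out, and each tumor left out.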

Additional observations from a re-analysis of the deposited data

Results flagged for a closer look

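In 7 of 25 groups tested the highest tumor stood apart from the rest of its model (a gap over the range beyond the 95% critical value of Dixon), where chance gives about 1 in 20. In 4 of the 7 every other tumor of the model had the same value of 0, so that any single value above 0 would stand apart, and the chance rate does not apply to these. The mean log2 ratio of MMTV-Wnt1 tumor 1 was 0.29, and its gained share was 100% of the chromosome 5 probes, while the other MMTV-Wnt1 tumors had at most 0.42%. This array is one of those in doubt. The gained share of BRCA1/p53 tumor 2 was 15.9%, its distal piece, against at most 2.62% in its model. MMTV-PyMT tumor 9 had a gained share of 0.425%, and the other MMTV-PyMT tumors had 0. The lost share was 3.20% in p53 transplant tumor 5 and 2.93% in MMTV-PyMT tumor 1, and 0 in the other tumors of each model, with both lost pieces between 35 and 39 Mb. C3(1)-Tag tumor 4 had 2 breakpoints and the other C3(1)-Tag tumors 0.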

How the results depend on the processing

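With the dyes as labelled every sign turned. The differences of the mean became -0.034 for BRCA1/p53, 0.083 for MMTV-c-Myc, -0.066 for C3(1)-Tag, -0.17 for MMTV-Her2/neu, 0.19 for MMTV-H-Ras, -0.12 for p53 transplant, 0.086 for MMTV-PyMT and 0.0070 for MMTV-Wnt1. The called bins became 32 higher in MMTV-H-Ras, 5 lower in p53 transplant and 3 higher in MMTV-PyMT, the tumors called became 0 gained and 10 lost, and chromosome 5 minus the other autosomes became -11.1 percentage points gained and 7.23 lost. Two-sided p-values were the same by construction.

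Differences of the mean passed the adjusted threshold for MMTV-Her2/neu with normexp (0.22), as medians over probes (0.18) and within slides (0.27). For MMTV-H-Ras they passed as medians (-0.17). The comparison within slides left out MMTV-Her2/neu tumor 4, which was alone on its slide. Signs turned, with no call, for MMTV-Wnt1 as medians (0.0070) and in the comparison of 1 array with 2 that is the same within slides and within scan dates (0.0059), and for C3(1)-Tag within slides (-0.10, 2 arrays). Neither comparison within blocks could reach the threshold. Differences in the lost share turned for MMTV-PyMT with a limit of 0.3 (-0.127 percentage points), a split statistic over 5 (-0.936), the deposited intervals (-2.84) and no smoothing (-0.742). They turned for BRCA1/p53 with a split over 5 (-0.654), the deposited intervals (-2.14) and no smoothing (-0.196), and for MMTV-Her2/neu with no smoothing (0.493). The gained share turned for MMTV-Wnt1 with a split over 5 (0.591) and for BRCA1/p53 with the deposited intervals (20.3). Differences in breakpoints per tumor turned for MMTV-Her2/neu with a split over 5 (2.425) or 8 (0.325), no smoothing (11.025) and steps of at least 0.2 (0.025). They turned for MMTV-Wnt1 with a split over 5 (-1.625), no smoothing (-5.175) and without the arrays in doubt (-0.0833), and for MMTV-c-Myc with a split over 8 (-0.125), no smoothing (-4.725) and steps of at least 0.2 (-0.65). None of these shares or breakpoints was called, and the cause of the turns was not tested. Without smoothing 396 segments were found in place of 114.

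Called bins moved as follows. Centred on the density peak they were 4 in MMTV-H-Ras, 3 in p53 transplant and 0 in MMTV-PyMT. With normexp they were 37 in MMTV-Her2/neu, 0 in MMTV-H-Ras and 10 in p53 transplant, and in p53 transplant 1 with loess and 1 in bins of 2 Mb. Without the arrays in doubt they were 20 in MMTV-H-Ras, 3 in p53 transplant and 0 in MMTV-PyMT, and with scan date as a random block 20 in MMTV-H-Ras. The number of tumors with a loss was 2 centred on the density peak (p53 transplant tumor 5 and MMTV-PyMT tumor 9), and 1 with normexp (MMTV-H-Ras tumor 1), loess, a split over 5, no smoothing or the deposited intervals. Gained tumors numbered 7 to 12 apart from the dyes as labelled. Of 360 alternative values 299 kept their direction and side of the threshold. The alternatives without smoothing, with steps of at least 0.2, without the arrays in doubt for sections, shares, breakpoints, whole gains of other autosomes and gene lists, and all those for chromosome 5 against the other autosomes were chosen after seeing the data.

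Leaving out each tumor in turn gave ranges of the difference of the mean of 0.021 to 0.047 for BRCA1/p53, -0.091 to -0.074 for MMTV-c-Myc, 0.018 to 0.093 for C3(1)-Tag, 0.12 to 0.22 for MMTV-Her2/neu, -0.20 to -0.18 for MMTV-H-Ras, 0.078 to 0.20 for p53 transplant, -0.094 to -0.076 for MMTV-PyMT and -0.069 to 0.012 for MMTV-Wnt1. The gained share of MMTV-Wnt1 ran from -20.2 to 4.80 percentage points, the lost share from -0.131 to 0.508 for p53 transplant and -0.150 to 0.263 for MMTV-PyMT, and breakpoints from -0.525 to 0.475 for MMTV-c-Myc and -1.025 to 0.475 for MMTV-Wnt1, none called. Called bins ran from 0 to 58 in MMTV-Her2/neu, 0 to 56 in MMTV-H-Ras, 0 to 27 in p53 transplant, 0 to 4 in MMTV-PyMT and 0 to 3 in BRCA1/p53. No paired analysis was possible because the labels give no replicate numbers that tie tumors of different models, and slides were used as blocks instead. The number of tumors per model and slides with 1 model limit every comparison between models.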
